A study of Mus musculus with 6 samples.

Results

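Cholesterol synthesis genes and target genes of the liver X receptors (LXR) were followed in tumor dendritic cells (DC). The set held 35 named genes: enzymes from the start of the mevalonate route to cholesterol, the SREBP proteins that switch these enzymes on, the LXR receptors with their targets, and 3 fatty acid synthesis genes. Of the 35, 34 had a row among the 23224 gene symbols of the deposited table, and all 34 passed the filter on low counts that kept 13223 genes. Hmgcs1, the second enzyme of the mevalonate route, had no row under that symbol and was not analysed here. The gene known today as Msmo1 stood under its older symbol Sc4mol. The set was drawn up to compare CD103+ DC1 with the ISG+ DC groups, so member calls in those comparisons are given below as a description that supports nothing, and the comparison used as a test is that of ISG+ DC between hosts. It uses the same ISG+ DC libraries, and the members were chosen with earlier results of these data known. Its p-values are therefore no independent evidence for the set as a whole or for a single member.

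Cells make cholesterol from acetyl-CoA through mevalonate, isoprenoids, squalene and lanosterol. When sterols are scarce, SCAP carries the precursor of SREBP-2 (gene Srebf2) from the endoplasmic reticulum to be cut, and the freed transcription factor switches on the enzymes of the route. INSIG proteins hold SCAP back when sterols are plentiful. The LXR receptors respond to oxysterols and switch on genes for cholesterol export, such as Abca1 and Abcg1, and in macrophages and related phagocytes this answers the cholesterol load that comes with engulfed cells.

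All cells came from MC57-SIY tumors, a mouse fibrosarcoma line that carries the model antigen SIY, which were grown under the skin of C57BL/6 mice for 7 days. The 3 groups were CD103+ DC1 from Rag2-/- hosts, ISG+ DC from Rag2-/- hosts and ISG+ DC from WT hosts, each with 2 libraries from live sorted cells of pooled tumors. Rag2-/- mice form no mature T or B cells and keep their innate cells, and no DC1 of WT hosts was compared here. CD103+ DC1 are conventional DC that excel at cross-presentation of antigen to CD8+ T cells; ISG usually stands for interferon-stimulated gene, and how ISG+ DC were gated could not be learned from the labels. The labels describe 2 independent experiments per sample type, and p-values rest on the spread between so few libraries.

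Libraries held between 6023510 and 15368616 estimated counts, and 12323 to 14051 genes had a count. CD103+ DC1 replicate 3 stood apart: it had the lowest total, Rpph1 took 1.11% of its counts against 0.303% to 0.383% elsewhere, and it correlated with each remaining library at 0.768 to 0.882 (Spearman, over the 13223 genes tested, a description), where the replicates of Rag2-/- and of WT ISG+ DC reached 0.934 and 0.921. Of the gene that separates the hosts, Rag2, the libraries labelled Rag2-/- held 39 and 11 estimated counts in DC1 and 40 and 2 in ISG+ DC, and those labelled WT held 0 and 0. The deleted part of Rag2 could not be learned from the labels, so these counts check no label, and every direction between hosts below rests on the labels. The DC1 label had its markers: Itgae, which encodes CD103, was at 324 and 423 scaled counts (CPM) in DC1 and between 0.299 and 7.00 CPM in ISG+ DC, and 7 of 8 DC1 markers were lower in each ISG+ DC group. All 6 CD11b+ DC markers were higher in each ISG+ DC group than in DC1.

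CPM are counts per library total after TMM scaling, so libraries of different depth can be set side by side. Values are listed by replicate number, which is 1 then 2 for WT ISG+ DC and 2 then 3 for Rag2-/- ISG+ DC and for DC1. They are not divided by gene length, so levels are compared between libraries and never between genes. Fold changes are on the log2 scale with their standard errors (SE), and a gene passed when its adjusted p was under 0.05.

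**Figure D1:**
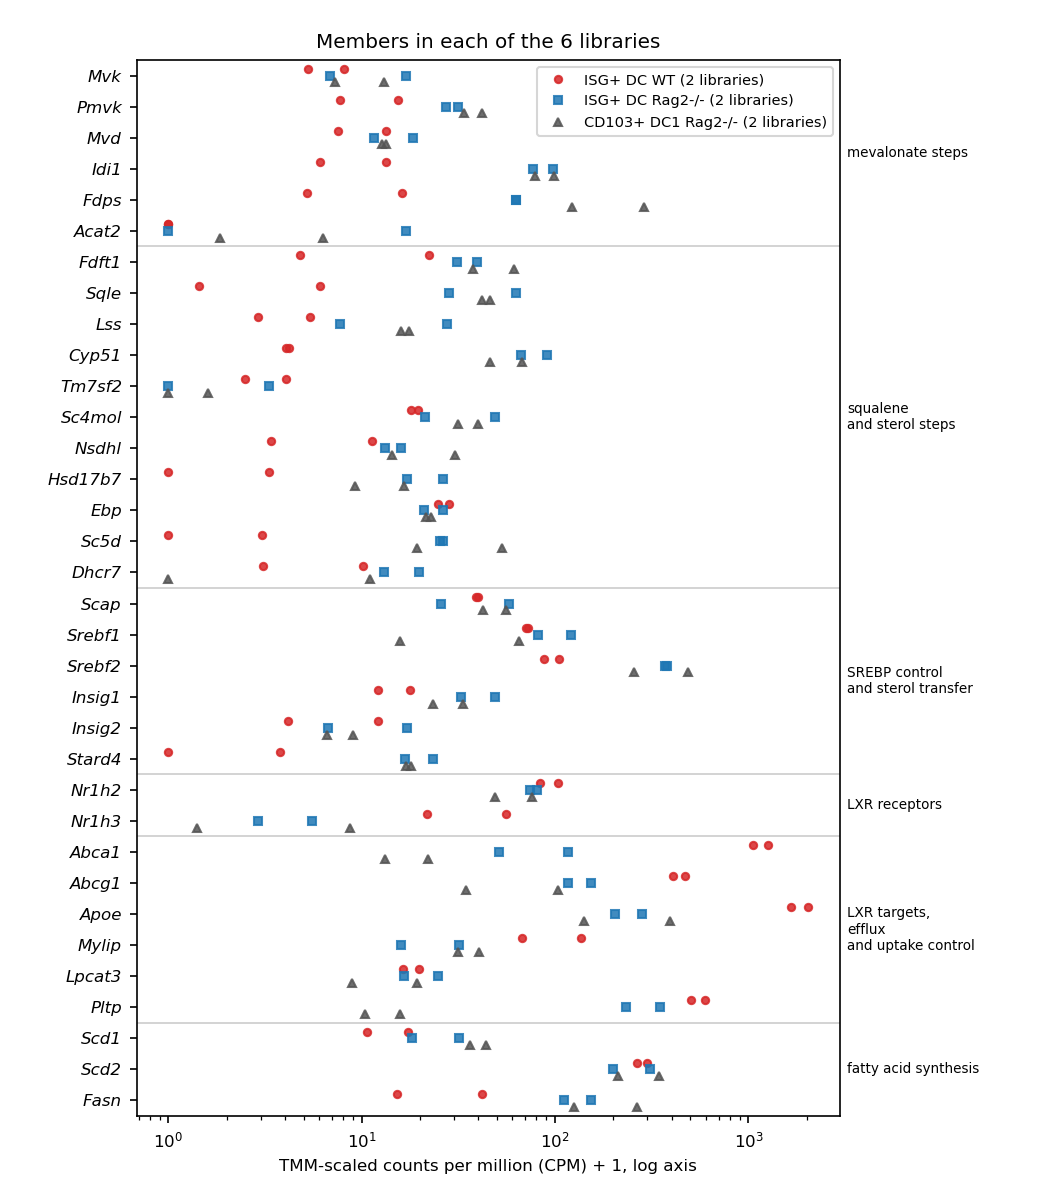
Level of the 34 members with a row in the table in each of the 6 libraries, as CPM + 1 on a log axis, grouped from top to bottom by role; each point is 1 library. For Idi1, Cyp51 and Srebf2 the WT ISG+ DC points lie to the left of the other 4 libraries, and for Abca1 and Apoe they lie to the right.

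Between hosts, ISG+ DC differed in 5 of the 34 members. Idi1, Cyp51 and Srebf2 were lower and Abca1 and Apoe were higher in ISG+ DC labelled WT than in those labelled Rag2-/-. Among all 13223 genes tested, 0.552% were called in this comparison, 0.265% lower and 0.287% higher, and 9.88% had an unadjusted p under 0.05; of the 34 members, 13 lower and 6 higher had one. The other 29 members did not pass. Of the 34, 18 had both WT libraries below both Rag2-/- libraries and 7 had both above, where 23.1% and 21.4% of all genes did so. By role, non-overlapping lower values were found for 12 of the 17 sterol synthesis members. Non-overlapping higher values were found for 7 of the 8 genes listed as LXR receptors and targets. Srebf1, Scd1 and Fasn, LXR targets listed under other roles, had non-overlapping lower values, at log2 values of -0.51, -0.88 and -2.25. The median log2 fold change was -1.45 over the sterol synthesis members and 1.93 over the LXR receptors and targets, against -0.03 over all genes. These medians are a description of lists chosen with earlier results known. In bulk RNA, fewer cells of a kind and less RNA per cell cannot be told apart.

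The number of calls moved with the test. DESeq2 called 4 members higher and 9 lower, and a fit on the 4 ISG+ DC libraries alone called 6 higher and 5 lower; both included the 5 genes above. Over all genes these calls numbered 545 and 444 in place of 73, so the members' counts grew along with the background. No sterol synthesis or SREBP control member was higher by edgeR, at an unadjusted p under 0.05 or by DESeq2. Without WT ISG+ DC replicate 1 the log2 values of Idi1, Cyp51, Srebf2, Abca1 and Apoe were -4.08, -4.6, -2.1, 3.93 and 2.77. Without Rag2-/- ISG+ DC replicate 2 these values were -3.46, -4.84, -1.98, 3.32 and 2.72.

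**Figure D2:**
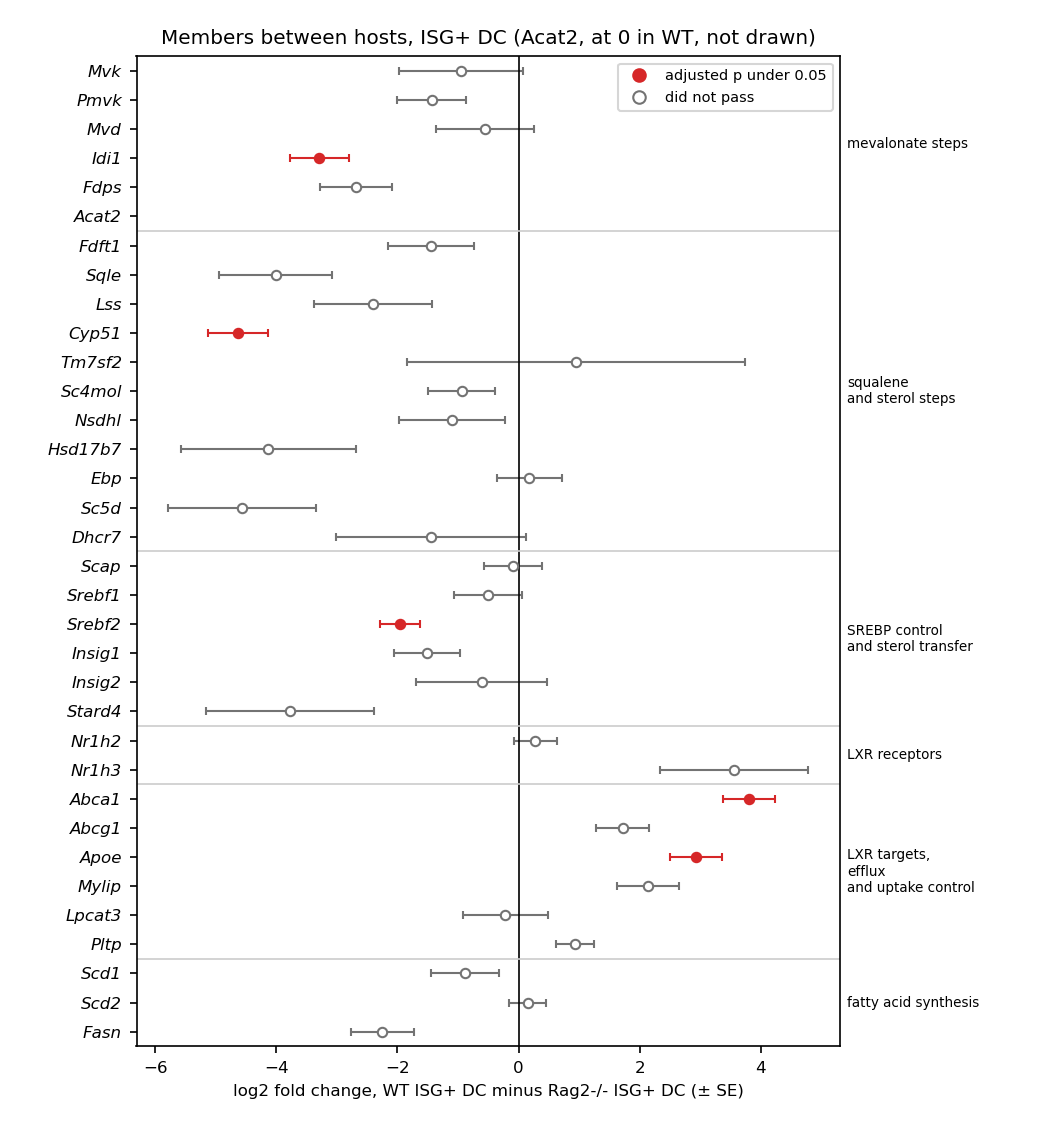
Log2 fold change of each member between ISG+ DC of WT and of Rag2-/- hosts, with bars of 1 SE; filled points passed at an adjusted p under 0.05. Of the drawn members from Mvk to Dhcr7, all but Tm7sf2 and Ebp lie left of 0. Of the genes grouped as LXR receptors and targets, all but Lpcat3 lie right of 0. The LXR targets Srebf1, Scd1 and Fasn, grouped under other roles, lie left of 0. Acat2 is not drawn because both WT libraries were at 0.

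Among the mevalonate steps, 1 of 6 tested members passed between hosts. Idi1, the isomerase that makes the second isoprenoid building block, was at 12.4 and 5.09 CPM in WT ISG+ DC, 75.7 and 96.3 in Rag2-/- ISG+ DC and 78.0 and 97.1 in DC1. The WT libraries lay below all 4 others, and Rag2-/- ISG+ DC and DC1 overlapped. Group means were 8.76 ± 5.18 against 86.0 ± 14.6 CPM (SD, n = 2 each), a log2 fold change of -3.29 ± 0.49 (SE; edgeR adjusted p = 0.02). Fdps, which joins the building blocks into farnesyl diphosphate, was at 15.1 and 4.19 CPM in WT ISG+ DC, 61.8 and 61.9 in Rag2-/- ISG+ DC and 121 and 288 in DC1. Its groups did not overlap anywhere, and between hosts the log2 value was -2.68 ± 0.59 and did not pass (edgeR adjusted p = 0.0821).

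Kinases and the decarboxylase that come before Idi1 had log2 values nearer to 0. Pmvk, phosphomevalonate kinase, was at 14.4 and 6.69 CPM in WT and 26.2 and 30.6 in Rag2-/- ISG+ DC, without overlap, at a log2 fold change of -1.43 that did not pass. Mvk, mevalonate kinase, and Mvd, mevalonate diphosphate decarboxylase, overlapped between hosts at log2 values of -0.95 and -0.56. Acat2, a thiolase of cytosolic acetyl-CoA, was listed at 0 in both WT libraries and in Rag2-/- ISG+ DC replicate 3, and at 15.9 CPM in Rag2-/- ISG+ DC replicate 2, so no fold is given. With Acat2 set to the limit of 3 counts per group the medians above are the same.

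From squalene to cholesterol, 1 of 11 tested members passed between hosts. Cyp51, the lanosterol demethylase, was at 3.04 and 3.19 CPM in WT ISG+ DC, 65.7 and 89.6 in Rag2-/- ISG+ DC and 66.8 and 44.9 in DC1. Means between hosts were 3.12 ± 0.11 and 77.6 ± 16.9 CPM (SD, n = 2 each), 24.8-fold apart at a log2 fold change of -4.63 ± 0.49 (SE; edgeR adjusted p = 0.00567). Rag2-/- ISG+ DC and DC1 overlapped. Sqle, squalene epoxidase and a rate-limiting enzyme of the route, was at 0.447 and 5.09 CPM in WT ISG+ DC, 27.3 and 61.8 in Rag2-/- ISG+ DC and 45.3 and 40.8 in DC1. Both WT values lay below the other 4 libraries, but the log2 value of -4.01 ± 0.93 did not pass (edgeR adjusted p = 0.0913).

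Fdft1, which makes squalene, was at 21.2 and 3.79 CPM in WT ISG+ DC, 30.2 and 38.4 in Rag2-/- ISG+ DC and 36.6 and 60.6 in DC1. Lss, which closes squalene epoxide to lanosterol, was at 4.38 and 1.90 CPM in WT ISG+ DC, 6.67 and 26.5 in Rag2-/- ISG+ DC and 16.5 and 14.9 in DC1. Neither overlapped between hosts and neither passed, at log2 values of -1.45 ± 0.71 and -2.40 ± 0.97 (edgeR adjusted p = 0.572 and 0.421). Sc5d, the lathosterol desaturase, was at 2.06 and 0 CPM in WT ISG+ DC, 24.4 and 25.2 in Rag2-/- ISG+ DC and 18.4 and 52.1 in DC1. Its log2 value of -4.56 ± 1.22 did not pass (edgeR adjusted p = 0.148), with 1 WT library at 0.

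Hsd17b7, a sterol reductase of the C4 demethylation complex, was at 2.32 and 0 CPM in WT and 16.1 and 25.2 in Rag2-/- ISG+ DC and did not pass (edgeR adjusted p = 0.316). Its partners Sc4mol and Nsdhl also had both WT libraries below both Rag2-/- libraries, at log2 values of -0.94 and -1.10 that did not pass. Dhcr7, the last reductase of one branch, was at 9.20 and 2.10 CPM in WT ISG+ DC, 12.0 and 18.7 in Rag2-/- ISG+ DC and 9.97 and 0 in DC1, with DC1 replicate 3 the library at 0. Ebp, the sterol isomerase, did not follow the order of its neighbours: it was at 23.9 and 27.4 CPM in WT, 25.4 and 19.9 in Rag2-/- ISG+ DC and 21.8 and 20.4 in DC1. Its host log2 value was 0.18 ± 0.53. Tm7sf2, a sterol reductase, stayed at or under 3.04 CPM in every library.

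Of the SREBP control genes, 1 of 6 passed between hosts. Srebf2 itself was at 104 and 86.8 CPM in WT ISG+ DC, 367 and 378 in Rag2-/- ISG+ DC and 486 and 256 in DC1. The WT libraries lay below all 4 others. Means were 95.6 ± 12.4 against 372 ± 7.56 CPM (SD, n = 2 each), at a log2 fold change of -1.96 ± 0.33 (SE; edgeR adjusted p = 0.0329). This call was lost without WT ISG+ DC replicate 2, without Rag2-/- ISG+ DC replicate 2 and without Rag2-/- ISG+ DC replicate 3. Each of these fits leaves 1 host group without replicates, so calls kept or lost there rest on the spread of other groups. Log2 values ran from -2.34 to -1.84 over all alternatives. Srebf1, which encodes SREBP-1 and is itself an LXR target, was at 70.0 and 71.3 CPM in WT ISG+ DC, 80.6 and 120.1 in Rag2-/- ISG+ DC and 63.8 and 14.7 in DC1. The host log2 value of -0.51 ± 0.56 did not pass (edgeR adjusted p = 0.888).

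Insig1, an SREBP target whose protein retains SCAP, was at 11.1 and 16.7 CPM in WT ISG+ DC, 31.5 and 47.8 in Rag2-/- ISG+ DC and 32.5 and 22.4 in DC1, and between hosts its log2 value of -1.51 ± 0.54 did not pass (edgeR adjusted p = 0.33). Stard4, a sterol carrier, was at 0 and 2.79 CPM in WT against 15.7 and 22.3 in Rag2-/- ISG+ DC, also without a call (edgeR adjusted p = 0.357). Insig2 and Scap overlapped between hosts at log2 values of -0.61 and -0.09.

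In Idi1, Cyp51 and Srebf2 both WT ISG+ DC libraries lay below every other library, as in members not shown, such as Sqle. The promoters of the 3 members that passed as lower in WT ISG+ DC are shown. They are the 250 bases before the RefSeq start on GRCm38.p6, which is not the build of the counts, read 5′ to 3′ on the gene's strand: chr13:8885356-8885605 (plus strand) for Idi1, chr5:4104698-4104947 (minus strand) for Cyp51 and chr15:82147019-82147268 (plus strand) for Srebf2. Capitals mark the NF-Y box CCAAT on either strand and the sterol-element-like letters ATCACCNCA.
Idi1: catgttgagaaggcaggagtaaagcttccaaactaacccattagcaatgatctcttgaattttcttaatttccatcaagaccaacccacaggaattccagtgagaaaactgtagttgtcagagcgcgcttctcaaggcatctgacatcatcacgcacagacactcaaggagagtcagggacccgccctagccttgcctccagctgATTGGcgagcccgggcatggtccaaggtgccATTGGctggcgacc
Cyp51: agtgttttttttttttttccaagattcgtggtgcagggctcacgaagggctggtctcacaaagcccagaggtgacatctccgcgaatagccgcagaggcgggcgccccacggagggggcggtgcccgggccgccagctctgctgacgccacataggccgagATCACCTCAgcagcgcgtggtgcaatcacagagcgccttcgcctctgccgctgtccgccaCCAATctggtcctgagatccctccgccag
Srebf2: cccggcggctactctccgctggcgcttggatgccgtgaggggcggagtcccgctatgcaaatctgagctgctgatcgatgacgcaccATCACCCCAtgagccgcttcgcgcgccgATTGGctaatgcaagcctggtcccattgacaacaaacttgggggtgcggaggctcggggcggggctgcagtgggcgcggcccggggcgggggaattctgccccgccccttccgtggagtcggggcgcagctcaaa
CCAAT, the box bound by NF-Y, a factor known to act beside SREBP, was found in all 3, with the leftmost base at -45 and -14 from the start in Idi1, at -29 in Cyp51 and at -135 in Srebf2. It was present in 23 of the 39 promoters of the 28 members with an entry (59.0%), and in 33.8% of all 32851 promoters of that length. Members that were not lower in WT ISG+ DC held it too, such as Ebp, Mylip and Pltp. ATCACCNCA, chosen after these sequences were seen, lay at -89 in Cyp51 and at -163 in Srebf2 and in 0.645% of all promoters. The sterol element TCACNCCAC, held by 1.05% of all promoters, matched the promoter of Hmgcs1 alone among members, and its stricter form, with C for N and an A in front (0.0731% of all), matched none. Both strands were searched; a match is a string of letters and no binding was measured.

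The LXR receptors did not pass between hosts in either direction. Nr1h2, which encodes the widely expressed LXR beta, was at 103 and 82.3 CPM in WT ISG+ DC, 79.9 and 72.9 in Rag2-/- ISG+ DC and 74.7 and 48.1 in DC1 (host log2 0.28 ± 0.35; edgeR adjusted p = 0.919). Nr1h3, LXR alpha, known from macrophages, was at 20.7 and 54.9 CPM in WT ISG+ DC, 1.89 and 4.52 in Rag2-/- ISG+ DC and 0.399 and 7.71 in DC1. The WT libraries lay above all 4 others, but with replicates this far apart the host log2 value of 3.56 ± 1.22 did not pass (edgeR adjusted p = 0.306). At an unadjusted p under 0.05, 1 of the 2 receptors was higher, and DESeq2 called 0.

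Of the 6 genes listed as LXR targets, without Srebf1, Scd1 and Fasn, 2 were higher in WT ISG+ DC and 0 were lower. At an unadjusted p under 0.05 the counts were 5 and 0, and DESeq2 called 4 and 0. Abca1, the transporter that hands cholesterol to lipid-poor apolipoproteins, was at 1053 and 1268 CPM in WT ISG+ DC, 50 and 116 in Rag2-/- ISG+ DC and 21.0 and 12.2 in DC1. The 3 groups did not overlap. Between hosts the means were 1160.5 ± 153 and 82.9 ± 46.4 CPM (SD, n = 2 each), 14-fold apart at a log2 fold change of 3.81 ± 0.43 (SE; edgeR adjusted p = 0.00829). Apoe, a carrier protein for exported lipid, was at 2032 and 1656 CPM in WT ISG+ DC, 203 and 281 in Rag2-/- ISG+ DC and 139.8 and 391 in DC1. Here Rag2-/- ISG+ DC and DC1 overlapped, and between hosts the log2 fold change was 2.93 ± 0.43 (edgeR adjusted p = 0.0194). This call was lost without Rag2-/- ISG+ DC replicate 2, at a log2 value of 2.72, in a fit that leaves 1 library in that group.

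Abcg1, the transporter that passes cholesterol to HDL, was at 408 and 470 CPM in WT ISG+ DC, 115 and 152 in Rag2-/- ISG+ DC and 103 and 33.7 in DC1. Mylip, a ubiquitin ligase that limits lipoprotein uptake, was at 66.1 and 135 CPM in WT ISG+ DC, 30.8 and 14.9 in Rag2-/- ISG+ DC and 39.3 and 30.3 in DC1. In both genes WT ISG+ DC lay above the other 4 libraries, and neither passed between hosts, at log2 values of 1.72 ± 0.44 and 2.14 ± 0.51 (edgeR adjusted p = 0.132 and 0.102). Pltp, the phospholipid transfer protein, split the libraries along another line: it was at 598 and 505 CPM in WT ISG+ DC, 231 and 349 in Rag2-/- ISG+ DC and 14.8 and 9.42 in DC1. Between hosts its log2 value of 0.93 ± 0.31 did not pass (edgeR adjusted p = 0.277). Lpcat3, which remodels membrane phospholipids, overlapped among the groups and ranged from 7.88 to 23.9 CPM.

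The fatty acid genes did not pass between hosts: 0 of 3 were higher or lower by edgeR, 1 was lower at an unadjusted p under 0.05, and DESeq2 called that 1. Fasn, fatty acid synthase and a target of SREBP and of LXR, was at 40.9 and 14.2 CPM in WT ISG+ DC, 110.1 and 152 in Rag2-/- ISG+ DC and 264 and 124 in DC1, with a host log2 value of -2.25 ± 0.52 (edgeR adjusted p = 0.093). Scd1, a stearoyl-CoA desaturase and LXR target, was at 16.4 and 9.68 CPM in WT ISG+ DC, 17.2 and 30.9 in Rag2-/- ISG+ DC and 35.2 and 43.0 in DC1. Its relative Scd2 was at 264 and 298 CPM in WT ISG+ DC, 199 and 307 in Rag2-/- ISG+ DC and 211 and 342 in DC1, with the 3 groups overlapping. The named LXR targets thus differed in order. Fasn and Scd1 had their lowest library in WT ISG+ DC, while Abca1, Abcg1, Apoe, Mylip and Pltp had their highest there. Srebf1 and Lpcat3 had their highest library in Rag2-/- ISG+ DC and their lowest in DC1.

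The promoters of Abca1, Srebf1 and Fasn are shown because they hold the same spaced letters and the genes differed in order between groups. They lie at chr4:53159896-53160145, chr11:60210472-60210721 and chr11:120824548-120824797, all on the minus strand, and are credited to RefSeq on GRCm38.p6 as above. Srebf1 has several promoters in that table and the third is printed. Capitals mark GGTTA and CGGTCA with any 4 bases between them, and CCAAT, on either strand.
Abca1: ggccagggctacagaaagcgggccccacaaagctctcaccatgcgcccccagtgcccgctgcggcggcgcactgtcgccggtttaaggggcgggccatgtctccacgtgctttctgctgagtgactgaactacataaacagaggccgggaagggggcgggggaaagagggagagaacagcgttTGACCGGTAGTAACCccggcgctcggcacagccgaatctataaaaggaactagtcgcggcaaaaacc
Srebf1: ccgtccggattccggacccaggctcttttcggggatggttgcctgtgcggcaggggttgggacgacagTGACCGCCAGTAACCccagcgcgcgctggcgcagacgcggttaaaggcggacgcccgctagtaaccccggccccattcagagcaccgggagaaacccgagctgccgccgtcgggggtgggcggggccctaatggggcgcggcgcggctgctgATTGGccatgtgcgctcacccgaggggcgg
Fasn: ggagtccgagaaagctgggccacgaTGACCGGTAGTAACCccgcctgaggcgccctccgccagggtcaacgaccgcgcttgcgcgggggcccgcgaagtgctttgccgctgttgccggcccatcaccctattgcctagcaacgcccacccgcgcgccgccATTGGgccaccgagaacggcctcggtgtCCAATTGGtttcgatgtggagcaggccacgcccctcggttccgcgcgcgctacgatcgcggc
GGTTA, spacer and CGGTCA form the layout of a direct repeat with a spacer, the form in which LXR with its partner RXR is known to bind. It lay on the opposite strand at -67 in Abca1, -182 in Srebf1 and -225 in Fasn. It occurred in 4 of the 32851 promoters (0.0122%), 3 of them these members, but the letters were chosen after the sequences were seen. The textbook repeat of AGGTCA with 4 bases between the copies occurred in 5 promoters (0.0152%) and in none of the members. CCAAT lay at -30 in Srebf1 and at -90, -62 and -59 in Fasn, where 2 of the matches share letters.

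Set against CD103+ DC1, the ISG+ DC groups gave different values. The set was chosen on these contrasts, so the counts of calls are a description and nothing is read from them. They share the DC1 libraries with each other and the ISG+ DC libraries with the host comparison. In Rag2-/- hosts, 2 of the 34 members were called higher in ISG+ DC (Abca1 and Pltp) and 0 lower, in a comparison that called 3.69% of all genes, 2.83% higher and 0.862% lower; at an unadjusted p under 0.05, which 14.9% of all genes had, it was 3 higher and 1 lower, and DESeq2 called 2 higher and 1 lower (Fdps). For WT ISG+ DC against DC1 of Rag2-/- hosts, 4 were called higher (Abca1, Abcg1, Apoe and Pltp) and 7 lower (Idi1, Fdps, Sqle, Cyp51, Sc5d, Srebf2 and Fasn), in a comparison that called 9.14% of all genes, 5.52% higher and 3.62% lower. In that second contrast host and population differ together and cannot be told apart.

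For the sterol synthesis members the median log2 fold change against DC1 was 0.08 for ISG+ DC of Rag2-/- hosts and -1.96 for those of WT hosts. Idi1 was at -0.03 and -3.32, Sqle at 0.05 and -3.96, Cyp51 at 0.47 and -4.16, and Srebf2 at 0.00 and -1.96. Fdps was the exception among the called enzymes, at -1.72 and -4.40, since its DC1 libraries were above every ISG+ DC library. For the LXR receptors and targets the medians were 0.45 and 2.73. Abca1 was at 2.30 and 6.11, Apoe at -0.13 and 2.80, Abcg1 at 0.96 and 2.67, and Pltp at 4.57 and 5.49. Pltp thus had most of its difference from DC1 already in Rag2-/- hosts, and Apoe had it in WT ISG+ DC.

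DC1 replicate 3 bears on these values. With a DC1 library left out, DC1 had no replicates, so only log2 values are given here. Apoe turned with the DC1 library kept, at 0.81 in Rag2-/- ISG+ DC against DC1 without replicate 3 and at -0.70 without replicate 2, since DC1 itself was at 139.8 and 391 CPM. Fdps moved to -0.95 and -3.64 and Abcg1 to 0.39 and 2.10 without DC1 replicate 3. Nr1h3 moved to 2.99 and 6.55, and Srebf1 to 0.67 and 0.16. Leaving out DC1 altogether, in the fit on the 4 libraries of the host comparison, gave the host log2 values of Idi1, Cyp51, Srebf2, Abca1 and Apoe as -3.29, -4.64, -1.97, 3.81 and 2.93.

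**Figure D3:**
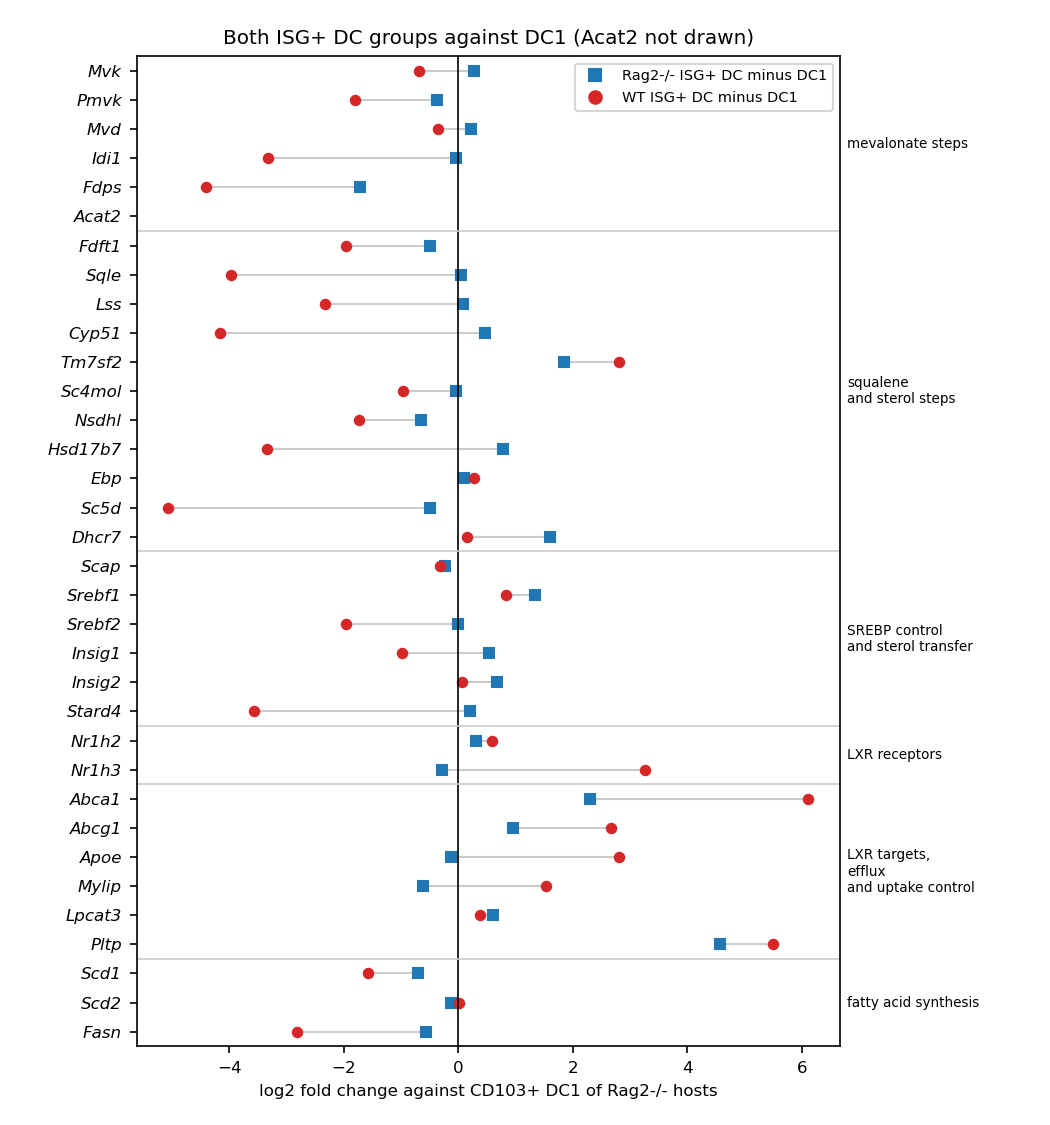
Log2 fold change of each member in Rag2-/- ISG+ DC (squares) and WT ISG+ DC (circles) against CD103+ DC1 of Rag2-/- hosts, joined by a line; Acat2 is not drawn. Squares of Idi1, Sqle, Cyp51 and Srebf2 lie within 0.47 of 0 with circles far to the left, while Pltp has both symbols to the right, at 4.57 and 5.49.

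Other genes of the pathways were listed by role. Of 65 genes reported here, 54 were tested, with 0 higher and 0 lower between hosts by edgeR (14 and 3 at an unadjusted p under 0.05, 10 and 1 by DESeq2). The median host log2 fold change over the 54 was 0.06. Of 9 further sterol synthesis genes tested, 1 had an unadjusted p under 0.05 between hosts, and the genes named next were picked after their values were seen, except Por. Lbr, the lamin B receptor that also acts as a sterol reductase, was at 62.5 and 70.0 CPM in WT ISG+ DC, 146 and 139.9 in Rag2-/- ISG+ DC and 118 and 126 in DC1, a host log2 value of -1.11 ± 0.29 that did not pass (edgeR adjusted p = 0.134). Its WT libraries lay below the other 4. Por, which feeds electrons to cytochrome P450 enzymes such as Cyp51, had the opposite order between hosts. It was at 105 and 134 CPM in WT ISG+ DC, 66.5 and 88.7 in Rag2-/- ISG+ DC and 38.0 and 27.1 in DC1. Among 14 SREBP processing genes and targets 0 passed between hosts, with 0 higher and 2 lower (Acaca and Fads2) at an unadjusted p under 0.05 and 0 by DESeq2. Acaca, which makes malonyl-CoA for fatty acid synthesis, was at 65.1 and 34.3 CPM in WT ISG+ DC, 100.2 and 126 in Rag2-/- ISG+ DC and 116 and 105 in DC1 (log2 -1.18 ± 0.37; edgeR adjusted p = 0.25).

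Further LXR partners and targets gave 0 calls between hosts among 9 tested, with 4 higher at an unadjusted p under 0.05 and 2 by DESeq2, and a median log2 fold change of 0.96. Mertk, a receptor for dying cells and an LXR target in macrophages, was at 86.2 and 42.1 CPM in WT ISG+ DC, 11 and 18.0 in Rag2-/- ISG+ DC and 5.19 and 2.91 in DC1. Arl4c, a small GTPase, was at 236 and 362 CPM in WT ISG+ DC, 88.3 and 139 in Rag2-/- ISG+ DC and 46.3 and 60.8 in DC1. In both, DC1, Rag2-/- ISG+ DC and WT ISG+ DC followed each other without overlap, and neither passed between hosts (edgeR adjusted p = 0.164 and 0.11). Lpl, lipoprotein lipase, was at 395 and 391 CPM in WT ISG+ DC, 137 and 267 in Rag2-/- ISG+ DC and 36.8 and 39.4 in DC1. Smpdl3a, a phosphodiesterase, instead overlapped between hosts, at 47.5 and 56.3 CPM in WT and 54.4 and 54.4 in Rag2-/- ISG+ DC, and at 14.4 and 11.8 in DC1. Abcg5, Abcg8, Apoc1 and Apoc4 were at 0 in all 6 libraries.

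Of the 17 uptake, lysosomal release and storage genes, 0 passed between hosts, with 9 higher and 0 lower at an unadjusted p under 0.05 and 7 higher by DESeq2, and a median log2 fold change of 1.14. Against DC1, 1 of the 17 was higher in Rag2-/- ISG+ DC (Lrp1), where 2.83% of all genes were, and 7 of the 17 in WT ISG+ DC, where 5.52% were. Lrp1, a lipoprotein and apoptotic-cell receptor, was at 2449.7 and 2682 CPM in WT ISG+ DC, 846 and 1432 in Rag2-/- ISG+ DC and 241 and 157 in DC1. Soat1, which esterifies cholesterol for storage, was at 258 and 347 CPM in WT ISG+ DC, 142 and 84.9 in Rag2-/- ISG+ DC and 76.9 and 87.9 in DC1. Nceh1, an esterase that frees stored cholesterol, was at 72.1 and 81.6, 14.9 and 10.8, and 8.51 and 14 CPM in the same order (host edgeR adjusted p = 0.0516). Lipa, the lysosomal lipase, was at 194 and 212 CPM in WT ISG+ DC, 74.3 and 77.1 in Rag2-/- ISG+ DC and 57.3 and 24.0 in DC1. Of 5 oxysterol genes tested, 0 passed between hosts, with 1 higher at an unadjusted p under 0.05 and 1 by DESeq2; Ch25h, the 25-hydroxylase, was at or under 5.69 CPM throughout.

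Markers of other cells differed between the same libraries. Summed over 11 macrophage and monocyte markers, WT ISG+ DC held 4532 and 4447 CPM, Rag2-/- ISG+ DC 2155 and 3012, and DC1 415 and 304. Between hosts 0 of the 11 passed, with 7 higher and 0 lower at an unadjusted p under 0.05 and 6 higher by DESeq2. Their median log2 fold change was 1.38. Of the 11, 8 had both WT libraries above both Rag2-/- libraries, where 21.4% of all genes did so. Fcgr1 and Ly6c2 had both below, at log2 values of -0.32 and -1.49, where 23.1% of all genes did so. Ccr2 overlapped at -0.04. Emr1, which encodes F4/80, came nearest to a call at 1.95 ± 0.37 (edgeR adjusted p = 0.0516). Over the same libraries the 6 LXR targets summed to 4175 and 4050.3 CPM in WT ISG+ DC, 645 and 936 in Rag2-/- ISG+ DC and 336 and 485 in DC1. Both sums were highest in WT ISG+ DC; Abca1 and Apoe make up most of the LXR sum there. The CD11b+ DC markers summed to 3055 and 3169.8 CPM in WT and 2395 and 2839 in Rag2-/- ISG+ DC, with 0 of 6 passing between hosts by edgeR, 0 at an unadjusted p under 0.05 and 0 by DESeq2.

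Proliferation genes, like the sterol synthesis members, had their lowest sums in WT ISG+ DC. The 17 synthesis members summed to 154 and 97.0 CPM in WT ISG+ DC, 469 and 560 in Rag2-/- ISG+ DC and 531 and 761 in DC1, and 6 proliferation genes to 311 and 228, 835 and 781, and 2162 and 2971 CPM. Mki67, the Ki-67 gene, was lower in WT than in Rag2-/- ISG+ DC at a log2 fold change of -1.54 ± 0.28 (edgeR adjusted p = 0.0467). It alone of the 6 proliferation genes passed. All 6 had non-overlapping lower values, where 23.1% of all genes did so. Ccna2 (3.84 and 0 CPM) and Ccnb1 (6.97 and 0.898 CPM) were low in WT ISG+ DC. Rag2-/- ISG+ DC had both proliferation sums below those of DC1, while their synthesis sums overlapped with DC1. Flt3, the growth factor receptor of DC, was also lower, at -2.29 ± 0.41 (edgeR adjusted p = 0.0411). Its companion Zbtb46, a transcription factor of conventional DC, was at 32.2 and 52.3 CPM in WT and 157 and 111 in Rag2-/- ISG+ DC (edgeR adjusted p = 0.0534), and Cd74 and H2-Ab1 did not pass.

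The 5 fibroblast and tumor matrix genes summed to 343 and 37.3 CPM in WT ISG+ DC, 1012 and 628 in Rag2-/- ISG+ DC and 999 and 417 in DC1.  Csf3r, a receptor of neutrophils and some monocytes, was higher in WT ISG+ DC (log2 2.90 ± 0.49; edgeR adjusted p = 0.035), while of the other neutrophil markers S100a8 was at 0 in all libraries and S100a9 and Retnlg, at 4.11 and 0.715 CPM, had counts in WT ISG+ DC replicate 1 alone. T cell markers summed to 21.3 and 21.7 CPM in WT ISG+ DC. In Rag2-/- hosts the sums were 32.5 and 7.51 CPM in ISG+ DC and 7.91 and 36.3 in DC1. The 3 B cell markers summed to between 0 and 4.47 CPM and the 3 NK cell markers to between 0 and 2.06 CPM. Ms4a1 and Klrb1c were at 0 throughout. The part of macrophages, cycling cells, stroma and DC makeup in the differences of the members was not tested.

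**Figure D4:**
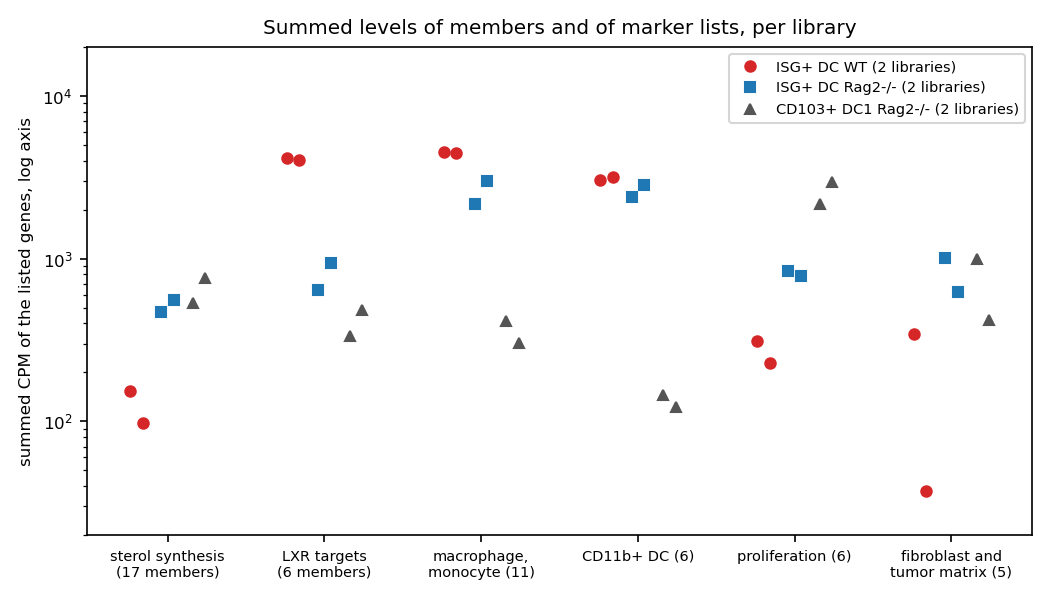
Summed CPM per library, on a log axis, of the sterol synthesis members, the LXR targets and 4 marker lists; each point is 1 library and the number of genes summed is given under each name. Sterol synthesis is lowest in WT ISG+ DC (154 and 97.0 CPM) as are the proliferation genes (311 and 228), and the LXR targets (4175 and 4050.3) and macrophage markers (4532 and 4447) are highest there.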

How the data were processed

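RNA of sorted tumor DC was turned into libraries with a strand-keeping total RNA kit for small samples, per the labels' protocols, although their molecule field names polyA RNA. The authors deposited 1 table of RSEM expected counts per gene symbol, not normalized, in which 16.1% of values are not whole. Bowtie 1.2.3, RSEM 1.3.1 and the build mm9 are named in the submitters' processing notes; for annotation and strand setting nothing was given in the sources used, and reads of overlapping and antisense genes cannot be told apart.

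Rounded counts entered edgeR 4.0.16 under R 4.3.3 (filterByExpr, TMM factors, glmQLFit and glmQLFTest, two-sided, Benjamini-Hochberg over 13223 genes, threshold 0.05). The 6 libraries entered 1 fit (residual degrees of freedom 3, prior 7.34, common biological coefficient of variation 0.703). SE come from the F statistic. Folds of groups at 0 use no prior-based value; the limit of 3 counts is 0.141 CPM over WT ISG+ DC, 0.101 over Rag2-/- ISG+ DC and 0.144 over DC1, and covers counting error only. DESeq2 1.42.0, other scalings, no filter, fewer libraries and a replicate block were alternatives. The procedure was also run on simulated counts drawn with the spread of these libraries, and no result above rests on that run.

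Members and lists were chosen with earlier results of these data known. Per-library values were given for members that passed in any comparison and for a fixed set, and for other pathway genes that passed (at most 4 a list, by smallest p) plus Ch25h; Lbr and Acaca were picked after their values were seen; some genes fixed for these lists are not reported here and were left out of the lists' counts; marker genes given with values were picked after their values were seen. Promoters were RefSeq's, on GRCm38.p6, matched by symbol for 28 of 35 members.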

Additional observations from a re-analysis of the deposited data

How the results depend on the processing

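Idi1, Cyp51 and Abca1 kept their direction between hosts under all 11 alternatives (log2 -4.08 to -2.80, -4.84 to -4.39 and 3.32 to 4.53). They kept their call wherever both host groups had 2 libraries. Srebf2 (-2.34 to -1.84) and Apoe (2.72 to 3.26) also kept their direction, and each lost its call in a fit with an ISG+ DC library left out. Such fits leave 1 host group without replicates, so their calls rest on the spread of other groups. Counts depended more on the processing. Between hosts 73 genes passed; 555 passed without a filter, 545 by DESeq2, 444 with the 4 compared libraries only and 27 to 198 with a library left out. Members higher were 5, 4, 6 and 1 to 3 in that order, and members lower 9, 9, 5 and 2 to 8. For ISG+ DC against DC1 in Rag2-/- hosts 488 genes passed; it was 1087 without a filter, 1078 by DESeq2, 297 with 4 libraries, 1157 with both ISG+ DC groups joined against DC1, and 278 to 2068 with a library left out. Members higher were 4 without a filter, 1 with 4 libraries (Abca1 lost its call) and 2 to 5 with a library left out; members lower were 1 without a filter, 1 by DESeq2, 5 with the groups joined and 0 to 2 with a library left out. For WT ISG+ DC against DC1 1209 genes passed; it was 1890 without a filter, 2082 by DESeq2, 683 with 4 libraries (Sqle and Sc5d lost their call) and 837 to 2754 with a library left out. Members lower were 11 without a filter and 8 to 9 with a library left out in place of 7, and members higher 4 to 7 in place of 4. The cause of these shifts was not tested.

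Values that turned between hosts without the block were all of members without a call: with a library left out, Tm7sf2 ran from -0.04 to 7.67, Scap from -0.57 to 0.63, Insig2 from -1.81 to 0.33, Lpcat3 from -0.49 to 0.12 and Scd2 from -0.13 to 0.50. Acat2 had no value without Rag2-/- ISG+ DC replicate 2, because both groups were then at 0. Where a lone WT library was at 0, fitted values such as -11.23 for Sc5d are not measured sizes.

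Replicate numbers 2 and 3 are shared by DC1 and Rag2-/- ISG+ DC. With the replicate block 715 genes passed, 2 members were higher and 1 (Fdps) was lower. The deviations of same-numbered libraries correlated at 0.0162 over 13223 genes, and the numbers were not taken as pairs; a single pair of differences cannot show whether an experiment was shared. The other comparisons share number 2 alone, so with the block, added after seeing the data, they rest on WT replicate 2. The block fit leaves 1 residual degree of freedom in every comparison, also for ISG+ DC against DC1 in Rag2-/- hosts. Between hosts 258 genes then passed, with 4 members higher and 7 lower, the 5 called genes among them (Srebf2 -2.34, Apoe 3.26). Values that turned there were Mvd 0.05, Tm7sf2 -0.55, Insig2 0.71 and Nr1h2 -0.09, all without a call. For WT ISG+ DC against DC1 943 genes passed, with 5 members higher and 9 lower. Depth limits genes at a few CPM such as Tm7sf2, Acat2 and Ch25h.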
